A study of Mus musculus with 16 samples.

Results

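The transcripts described here encode the proteins that bind the mRNA cap and the proteins that hold the cap-binding factor eIF4E in check. They are Eif4e, Eif4e2 and Eif4e3, the eIF4E regulators Eif4ebp1, Eif4ebp2 and Eif4enif1, and the nuclear cap-binding proteins Ncbp1, Ncbp2 and Ncbp3. These 9 genes were taken by name from the 46983 genes of the count table, by a list drawn up with earlier results of these data known. RNA was sequenced from 46C mouse ESCs, a line of 129Ola origin with GFP at the Sox1 locus, 48 hr after transfection with RAM siRNA (siRAM) or a non-targeting control (Ct). Each siRNA had 4 replicates from independent occasions, and each replicate gave a library of the lysate (input) and a library of pooled gradient fractions 17 to 22 (polysomes), 16 libraries in all. All cells received cycloheximide before lysis. All groups are therefore transfected undifferentiated cells of 1 line, and the labels give no difference between them other than siRNA and fraction. A figure legend of the study names a single RAM siRNA for the 4 occasions. An effect of lower RAM and any other effect of that siRNA therefore cannot be told apart in these libraries.

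Translation of most mRNAs starts when eIF4E binds the methylated guanosine cap and brings eIF4G and the helicase eIF4A to the transcript. The 4E-BPs and 4E-T bind the same face of eIF4E as eIF4G through a short shared motif, and mTORC1 phosphorylates the 4E-BPs so that they release it. 4EHP, the product of Eif4e2, binds the cap but not eIF4G and represses the transcripts it is brought to, and in the nucleus new caps are bound by the NCBP1-NCBP2 complex. RAM activates the enzyme that methylates the cap, so the cells compared here differ in a protein needed to make the structure that these proteins bind.

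The motif by which the inhibitors reach eIF4E is shown as the codons that encode it, since it is the feature that Eif4ebp1, Eif4ebp2 and Eif4enif1 share. The codons were read from GENCODE M21 transcripts (GRCm38) by a search for a tyrosine codon, 4 codons of any kind, a leucine codon and a codon for a further hydrophobic residue, and the capitals mark the tyrosine codon and the last pair of codons.
Eif4ebp1: TATgaccggaaatttCTGATG
Eif4ebp2: TATgaccgaaagtttCTGTTG
Eif4enif1: TATacgaaagaggagCTCTTG
The stretch starts at codon 53 of Eif4ebp1 (chr8:27273337-27273357, plus strand), at codon 54 of Eif4ebp2 (chr10:61435069-61435089, minus strand) and at codon 29 of Eif4enif1, where an intron splits it. Each of these coding sequences holds the pattern once. The sequences of Eif4ebp1 and Eif4ebp2 are identical at 18 of 21 bases, and that of Eif4enif1 is identical to them at 8 and 11. The pattern alone is common, and 22.5% of the 12121 tested genes with a coding sequence hold it at least once.

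The eIF4E family lies on different chromosomes of GRCm38. Eif4e (ENSMUSG00000028156) lies on chromosome 3 from 138526179 to 138559696, Eif4e2 (ENSMUSG00000026254) on chromosome 1 from 87213914 to 87240488 and Eif4e3 (ENSMUSG00000093661) on chromosome 6 from 99625135 to 99666771. Of the regulators, Eif4ebp1 (ENSMUSG00000031490) lies on chromosome 8 from 27260329 to 27276674, Eif4ebp2 (ENSMUSG00000020091) on chromosome 10 from 61428491 to 61452661 and Eif4enif1 (ENSMUSG00000020454) on chromosome 11 from 3202392 to 3244588. Ncbp1 (ENSMUSG00000028330) lies on chromosome 4 from 46138613 to 46172403, Ncbp2 (ENSMUSG00000022774) on chromosome 16 from 31948513 to 31961781 and Ncbp3 (ENSMUSG00000020783) on chromosome 11 from 73047783 to 73089317. Eif4e3 shares 373 exon bases with Gm20696 on the same strand, so its reads may in part belong to that gene. Ncbp1 and Ncbp2 share between 77 and 131 exon bases with genes on the opposite strand (Xpa, Tstd2 and Senp5), and whether counting kept the strands apart is not given in the sources used here.

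Libraries held between 16647523 and 20147833 counts. Values are CPM (counts scaled to the same total, here after TMM normalization over all 16 libraries), with the SD of 4 libraries. The 8 members other than Eif4e3 were among the 12805 genes with at least 1 CPM in at least 10 libraries, which were tested, and had between 111 and 8414 counts in each library. Eif4e3 had between 19 and 35 counts in each input library and between 5 and 26 in each polysome library and did not pass this filter.

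The targeted gene was examined first. Ramac, which encodes RAM, was at 10.6, 10.1, 10.7 and 11.6 CPM in the control input replicates 1 to 4 and at 3.10, 2.66, 3.10 and 3.16 CPM in the RAM siRNA replicates, 28.0% of the control mean. It fell by 1.84 on the log2 scale (SE 0.11, the standard error of the fit; Benjamini-Hochberg adjusted p = 7.2e-06, quasi-likelihood test of edgeR). In polysomes, Ramac was at 6.58, 6.86, 8.77 and 14.5 CPM in control cells and at 0.961, 0.286, 2.24 and 2.60 CPM in RAM siRNA cells, and no RAM siRNA library overlapped a control library in either fraction. The polysome log2 fold change was -2.52 (SE 0.55), with an adjusted p of 0.128, and of 2.4e-05 with a term for the replicate number (replicate block).

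Markers of ESCs were abundant in every library. The 6 ESC markers had a summed level of 1950.1 ± 108 CPM in control input, against 1722 ± 85.4 CPM with RAM siRNA (SD, n = 4), with Pou5f1 (Oct4) the most abundant. Nanog (-0.29, adjusted p = 0.0205) and Esrrb (-0.25, adjusted p = 0.0290), 2 of these 6, fell in input, as did 5.94% of all genes. With the replicate number as a block, 5 of the 6 were called lower, against 19% of all genes, with Pou5f1 (-0.19, adjusted p = 0.0011), Klf4 (-0.14, adjusted p = 0.0200) and Zfp42 (-0.11, adjusted p = 0.0386) added. Sox2 was not among them (-0.09, adjusted p = 0.0887). The 4 neural markers summed to 78.9 ± 5.53 and 85.9 ± 6.47 CPM, but this sum held differences in opposite directions. Pax6 was at 12.3 ± 1.52 and 8.75 ± 1.97 CPM (-0.50, adjusted p = 0.0506, with the block 2.9e-04), and Nes at 27.6 ± 4.71 and 37.2 ± 5.75 CPM (0.42, adjusted p = 0.0531, with the block 3.7e-06). In polysomes Pax6 was called lower with the block (-0.93, adjusted p = 4.8e-04). In input the 3 fibroblast markers summed to 8.72 ± 0.651 and 10.2 ± 1.02 CPM, most of it Thy1. The 3 primitive endoderm markers summed to 4.04 ± 0.535 and 5.96 ± 0.590 CPM. Their most abundant gene, Gata6, rose from between 2.42 and 3.25 CPM to between 3.92 and 4.91 CPM (0.61, adjusted p = 0.0196). No marker was at 0 in all 4 libraries of a group. The part of these shifts in the results below was not tested, and in bulk samples fewer cells of a type and less RNA per cell cannot be told apart.

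**Figure D1:**
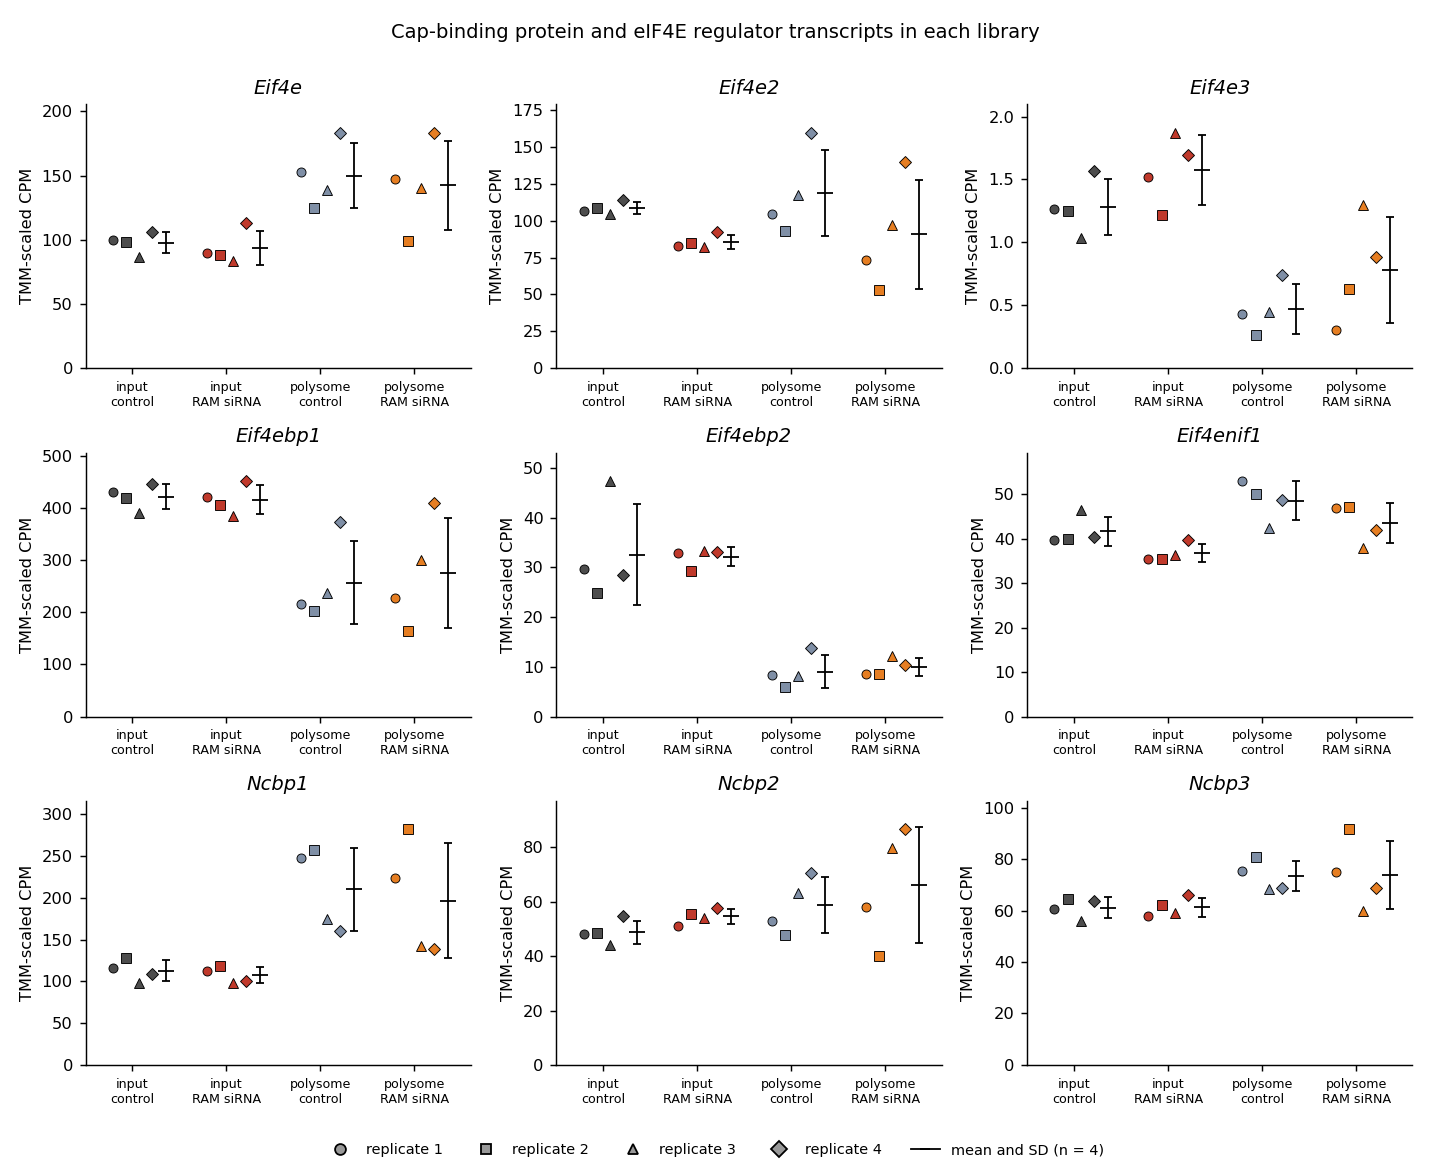
Abundance of the 9 transcripts in each library, as TMM-scaled CPM on a linear axis from 0, for control and RAM siRNA cells in input and polysomes, with symbols for replicates 1 to 4 and bars for the mean and SD (n = 4). In input, Eif4e2 lies lower in all 4 RAM siRNA libraries than in any control library, and the polysome values of most members spread more widely than their input values.

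In control ESCs these transcripts differed widely in abundance. To compare genes, CPM was divided by the merged exon length in kilobases. Eif4ebp1, encoding a 4E-BP, was by far the most abundant at 192 ± 10.7 CPM per kb in control input (SD, n = 4). Ncbp1 followed at 33.3 ± 3.71 CPM per kb, then Ncbp2 at 21.2 ± 1.89, Eif4e at 16.3 ± 1.36 and Eif4e2 at 14.5 ± 0.551. The lowest were Eif4enif1 at 6.53 ± 0.505 CPM per kb, Eif4ebp2 at 5.63 ± 1.74, Ncbp3 at 3.55 ± 0.228 and Eif4e3 at 0.509 ± 0.0873. The libraries of Eif4e and Eif4e2 overlapped, as did those of Eif4enif1 and Eif4ebp2, and the other neighbours in this order did not. The annotated exons of Ncbp3 span 17240 bases, which lowers its value per kb where the cells use a shorter form.

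Whether RAM siRNA changes the transcripts of the proteins that bind the cap was first compared in input. Eif4e2, encoding the repressor 4EHP, fell to 78.7% of its control level. The transcript of eIF4E itself and those of the 4E-BP genes Eif4ebp1 and Eif4ebp2 were not past the threshold, with means at 95.7% (Eif4e), 98.6% (Eif4ebp1) and 98.6% (Eif4ebp2) of control. Eif4e2 was the only 1 of the 8 tested members called (12.5%), against 12.9% of all genes tested. With the replicate block, Eif4enif1 was also called lower and Ncbp2 higher, which made 3 of 8 members against 39.3% of all genes. Both shares are close to those of all genes. The median log2 fold change of the members was -0.05 and that of all tested genes 0.00070.

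Eif4e2 was at 107, 109, 105 and 114 CPM in the control input replicates 1 to 4. In the RAM siRNA replicates it was at 83.1, 84.8, 81.9 and 92.2 CPM. The highest RAM siRNA library lay below the lowest control library, and the level was lower in all 4 same-numbered pairs, by between 0.31 and 0.36 on the log2 scale. The log2 fold change was -0.35 (SE 0.07, 95% confidence interval -0.49 to -0.21, adjusted p = 0.0054), and with the replicate block it was -0.35 (SE 0.04, adjusted p = 1.9e-06). The call was lost with replicates 3 and 4 alone (-0.34, adjusted p = 0.646), a fit that called 0 genes, and with all 16 libraries in 1 fit (-0.35, adjusted p = 0.675), which shares the wider spread of the polysome libraries.

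Eif4e, the cap-binding subunit of eIF4F, was at 100.0, 98.1, 86.6 and 106 CPM in control input. In RAM siRNA input it was at 89.6, 88.4, 83.2 and 113 CPM. These groups overlapped, with replicate 4 higher and the others lower after RAM siRNA, and the log2 fold change was -0.07 (95% confidence interval -0.28 to 0.14, adjusted p = 0.703). The Eif4e2 to Eif4e ratio per kb was 0.894 ± 0.0526 in control input and 0.739 ± 0.0587 in RAM siRNA input (SD, n = 4). It was lower in all 4 RAM siRNA libraries than in any control library. In polysomes the ratio was 0.631 ± 0.0683 in control and 0.499 ± 0.100 with RAM siRNA, lower in every same-numbered pair although the groups overlapped. No test was made of it in either fraction. Eif4e3, whose product also binds the cap, was at 1.04 to 1.57 CPM in control input and 1.21 to 1.87 CPM in RAM siRNA input, with overlapping groups and 3 of 4 pairs higher.

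Of the inhibitors of eIF4E, neither Eif4ebp1 nor Eif4ebp2 passed the threshold in input in either fit. Eif4ebp1 was at 431, 420.4, 390.4 and 446 CPM in control cells and at 421, 406, 385 and 452 CPM in RAM siRNA cells. Its groups overlapped almost completely, with a log2 fold change of -0.02 (95% confidence interval -0.19 to 0.14, adjusted p = 0.875). Eif4ebp2 was at 29.7, 24.8, 47.4 and 28.5 CPM in control cells and at 32.8, 29.3, 33.3 and 33.1 CPM in RAM siRNA cells. Control replicate 3 was far above the other control libraries, and the interval was correspondingly wide (-0.02, 95% confidence interval -0.38 to 0.33, adjusted p = 0.949).

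Eif4enif1 encodes 4E-T, which carries eIF4E into the nucleus and into processing bodies. It was at 39.7, 39.9, 46.4 and 40.4 CPM in control input and at 35.5, 35.3, 36.4 and 39.7 CPM in RAM siRNA input. The groups did not overlap, by a narrow margin, and all 4 pairs were lower. The log2 fold change was -0.18 (SE 0.08), with an adjusted p of 0.138, and of 0.0132 with the replicate block. Eif4e2 and Eif4enif1 were the 2 of 8 members whose input groups did not overlap, against 18% of all genes tested.

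Of the nuclear cap-binding proteins, Ncbp2 encodes the subunit that contacts the cap (CBP20), Ncbp1 the larger subunit that supports it (CBP80) and Ncbp3 an alternative partner of NCBP1. Ncbp2 was at 48.0, 48.4, 44.1 and 54.6 CPM in control input and at 51.2, 55.6, 54.2 and 57.8 CPM in RAM siRNA input. It was higher in all 4 pairs although the groups overlapped, with a log2 fold change of 0.16 (SE 0.08, adjusted p = 0.181) that passed the threshold with the replicate block (0.17, SE 0.05, adjusted p = 0.0125). Ncbp1 had a log2 fold change of -0.07 (95% confidence interval -0.27 to 0.13, adjusted p = 0.654) and a range of 98.4 to 128 CPM in control cells and 98.5 to 118 CPM in RAM siRNA cells. Ncbp3 had a log2 fold change of 0.00018 (95% confidence interval -0.15 to 0.15, adjusted p = 0.999).

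**Figure D2:**
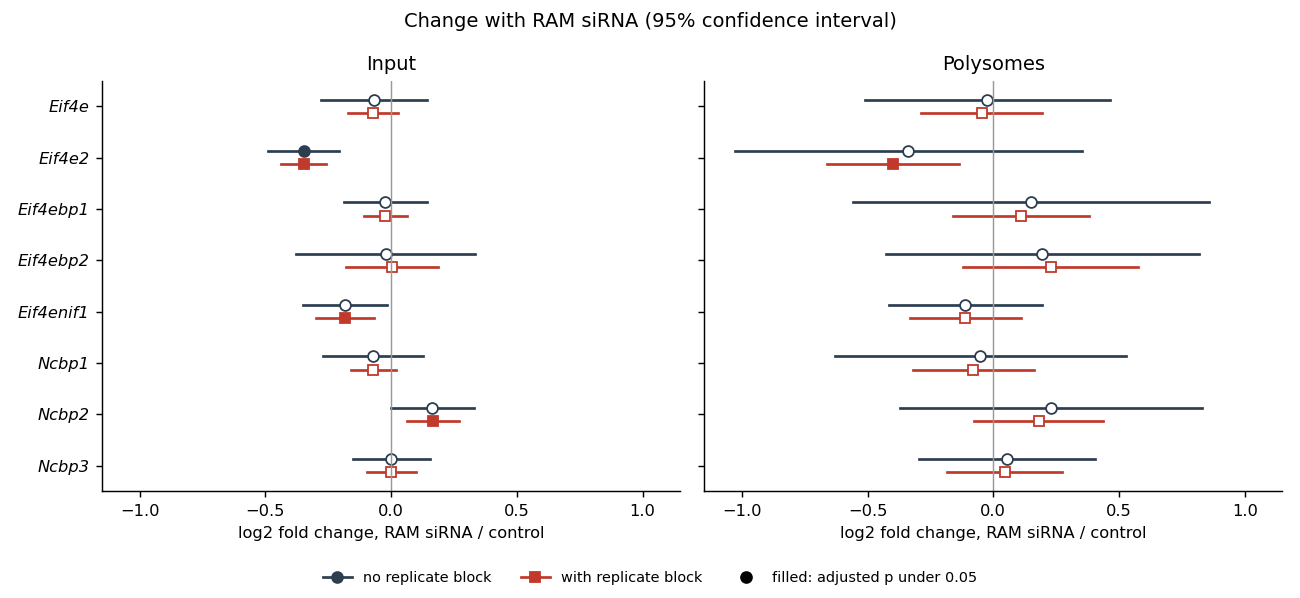
Log2 fold change of the 8 tested members with RAM siRNA in input (left) and polysomes (right), with 95% confidence intervals, from edgeR without (circles) and with (squares) the replicate block; filled symbols have an adjusted p under 0.05. Eif4e2 is at -0.35 in input in both fits, and the polysome intervals without the block are the widest.

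In polysomes the same comparison had much wider intervals. No member was called without the replicate block (0 of 8, against 0.0234% of all genes, or 3 genes). An unadjusted p under 0.05 was found for 0 members, against 1152 of the 12805 genes tested. DESeq2 and limma-voom also called 0 members, against 300 and 3 of the 12805 genes. With the block, Eif4e2 fell, and it was the only 1 of 8 members called, against 14.6% of all genes. The groups of 0 of 8 members were free of overlap, against 6.56% of all genes. The median log2 fold change of the members was 0.01 without the block and that of all tested genes 0.06.

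Eif4e2 was at 105, 93.2, 118 and 159.7 CPM in the control polysome replicates 1 to 4 and at 73.4, 53.1, 97.0 and 139.5 CPM in the RAM siRNA replicates. The groups overlapped, yet each RAM siRNA library was below the control library of its number. The log2 fold change was -0.34 (SE 0.31, adjusted p = 0.902), and -0.40 with the block (SE 0.12, 95% confidence interval -0.66 to -0.14, adjusted p = 0.0405). It was -0.62 in replicates 1 and 2 alone and -0.18 in replicates 3 and 4 alone. Without the block it ranged from -0.14, without RAM siRNA replicate 2, to -0.64, without RAM siRNA replicate 4.

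The other members were not past the threshold in polysomes in either fit. Eif4e was at 153, 124, 139 and 183 CPM in control polysomes and at 147, 99.0, 140.0 and 183 CPM in RAM siRNA polysomes. Replicate 2 fell furthest and the others were nearly level, and the log2 fold change was -0.05 with the block (95% confidence interval -0.29 to 0.20, adjusted p = 0.832). With the block, the remaining 6 had log2 fold changes between -0.11 (Eif4enif1, adjusted p = 0.530) and 0.23 (Eif4ebp2, adjusted p = 0.396).

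Polysome loading, the part of a polysome change that the input change does not account for, was tested over all 16 libraries. No member was called, and 0% of all genes were. The quasi-likelihood test gave 100 of the 12805 genes an unadjusted p under 0.05, 0 of them members, and DESeq2 called 1 gene, which was not a member. For Eif4e2, which fell in input, the difference was -0.04 on the log2 scale (95% confidence interval -0.72 to 0.63), and with a replicate block within each fraction it was -0.10 (95% confidence interval -0.37 to 0.17). For Eif4e the latter fit gave -0.02 (95% confidence interval -0.27 to 0.22) and for Eif4ebp1 0.08 (95% confidence interval -0.19 to 0.36). Changes in loading within these intervals, relative to the other transcripts, remain compatible with these libraries. TMM scaling sets the median gene near 0 in this fit (0.0013 on the log2 scale). A change in loading shared by all transcripts is therefore not measured by this test or by the comparison in polysomes. The study reported a lower ratio of polysomes to monosomes after RAM siRNA, measured on the gradients.

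How the transcripts were distributed between polysomes and input was compared in control cells. The Eif4ebp1 and Eif4ebp2 transcripts were scarcer in polysomes than in input, while Eif4e and Ncbp1 were more abundant there. The mean of Eif4ebp2 in polysomes was 0.276 of that in input and the mean of Eif4ebp1 0.609, against 1.53 for Eif4e and 1.86 for Ncbp1. The 4 members called are 50% of the 8 tested, against 67.4% of all genes, and 2 were lower and 2 higher, against 34.3% and 33.1% of all genes. With the replicate block Ncbp3 was called higher as well, which made 5 members against 72.3% of all genes. TMM scaling sets the median gene near 0 (-0.00080 on the log2 scale), so these values rank a transcript against the other transcripts, and the members had a median of 0.21.

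Eif4ebp2 was at 8.36, 5.86, 8.09 and 13.7 CPM in control polysomes, and every one of these libraries was below the lowest input library. It fell by 1.89 on the log2 scale from input to polysomes (SE 0.27, adjusted p = 8.0e-05), and the polysome to input ratio of the 4 replicates lay between 0.171 and 0.480. Eif4ebp1 was at 216, 202, 238 and 373 CPM in control polysomes. It was below the lowest input library in all 4, with a log2 ratio of -0.75 (SE 0.19, adjusted p = 0.0045). The size of that difference rested on replicates 1 and 2, with a log2 ratio of -1.08 in these alone and of -0.46 in replicates 3 and 4 alone (adjusted p = 0.133), a split chosen after the values were seen.

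Eif4e had a log2 ratio of 0.58 (SE 0.14, adjusted p = 0.0030), and its polysome to input ratio lay between 1.27 and 1.73 in the 4 replicates. Ncbp1 was at 248, 258, 174 and 160.1 CPM in control polysomes and at 116, 128, 98.4 and 109 CPM in control input. Its groups did not overlap, and the log2 ratio was 0.86 (SE 0.17, adjusted p = 7.7e-04). Ncbp3 had a log2 ratio of 0.23 (SE 0.11), with an adjusted p of 0.0797, and of 0.0495 with the block. Eif4e, Eif4ebp1, Eif4ebp2, Ncbp1 and Ncbp3, 5 of 8 members, had groups that did not overlap, against 61% of all genes.

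Eif4e2, Eif4enif1 and Ncbp2 were not past the threshold between fractions in control cells. Their log2 ratios were 0.10 (adjusted p = 0.605), 0.19 (adjusted p = 0.147) and 0.23 (adjusted p = 0.165). With 1 library left out, Ncbp2 lay between 0.12 and 0.34, and it passed the threshold without control polysome replicate 2 (adjusted p = 0.0372). Under the other alternatives Ncbp2 lay between 0.0062 and 0.44, with an adjusted p between 0.0473 and 0.953. Eif4e3 was lower in polysomes than in input in all 4 replicates, at 0.432, 0.264, 0.450 and 0.736 CPM. In a fit without the filter on low counts its log2 ratio was -1.34 (SE 0.34, adjusted p = 0.0013), on 5 to 13 counts in each polysome library.

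The ratios of the polysome to the input mean in RAM siRNA cells stood at similar values. They were 0.309 for Eif4ebp2, 0.662 for Eif4ebp1, 1.52 for Eif4e and 1.83 for Ncbp1. Eif4ebp2 and Ncbp1 had no overlap between fractions in these cells, while the fractions of Eif4e and Eif4ebp1 overlapped.

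**Figure D3:**
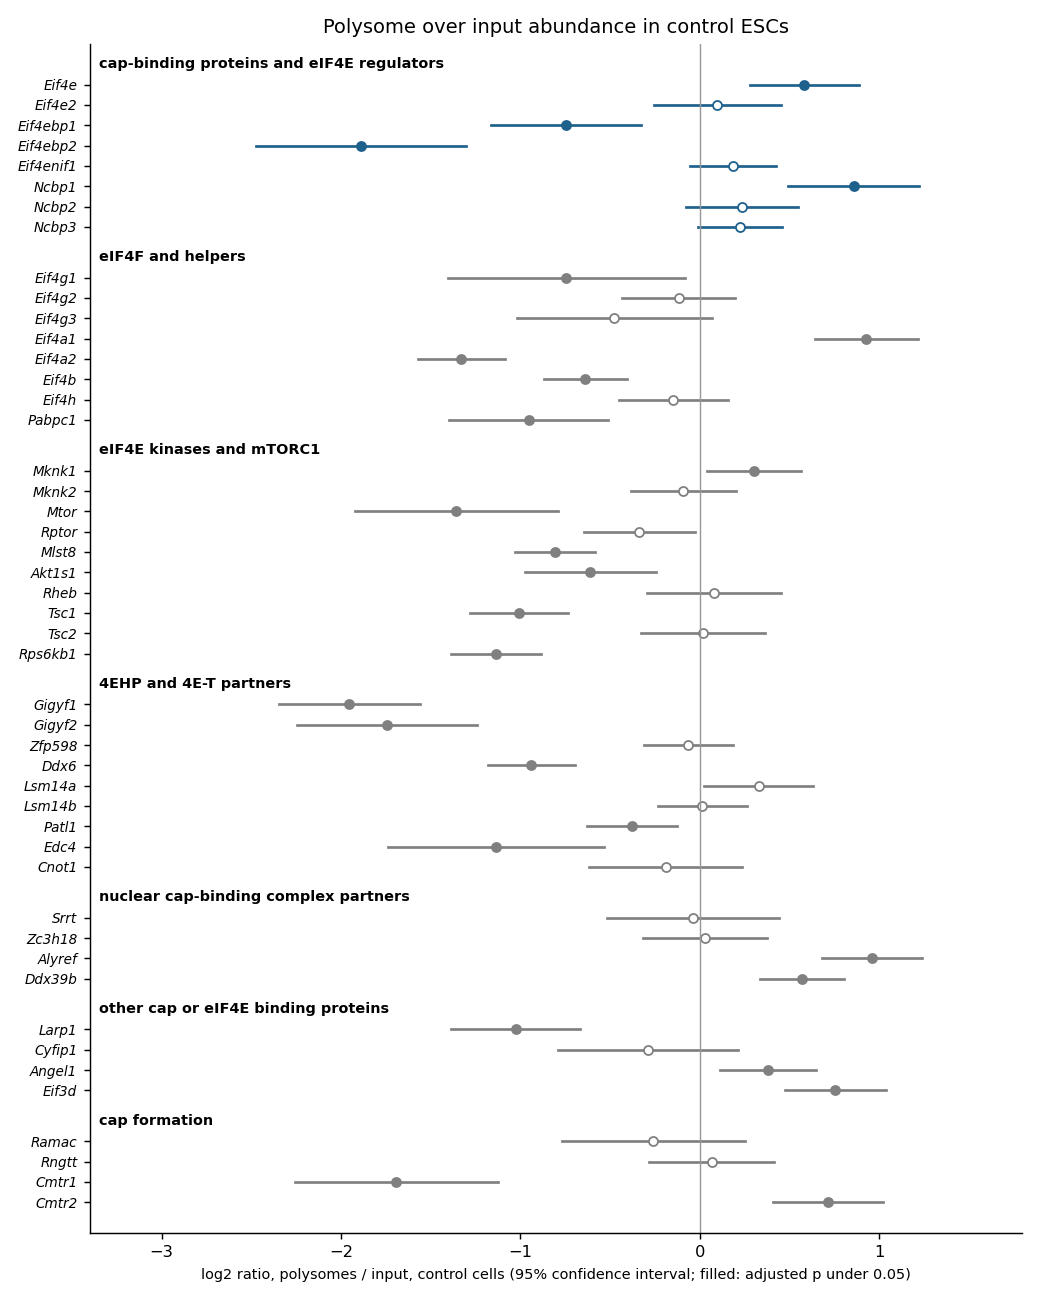
Log2 ratio of polysome over input abundance in control ESCs with 95% confidence intervals, for the 8 tested members (blue) and 39 genes of related function (grey), where filled symbols have an adjusted p under 0.05. Eif4ebp2 at -1.89 is the lowest member and Ncbp1 at 0.86 the highest.

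A balance of inhibitor to eIF4E transcripts was described as the summed level of Eif4ebp1 and Eif4ebp2 over that of Eif4e, per kb of exon. It was 12.2 ± 0.492 in control input and 12.6 ± 0.908 in RAM siRNA input (SD, n = 4). In polysomes it was lower, at 4.70 ± 0.716 in control and 5.26 ± 0.956 in RAM siRNA libraries. The control and RAM siRNA libraries overlapped in both fractions, and in both conditions the polysome libraries lay below every input library. Eif4ebp1 made up most of the summed level, and Eif4ebp2 added 2.88% of it in control input and 1.30% in control polysomes. Without the length correction the ratio was 4.67 in control input and 1.75 in control polysomes, so its absolute size depends on the annotated lengths. These are levels of transcripts, and protein was not measured in these libraries.

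**Figure D4:**
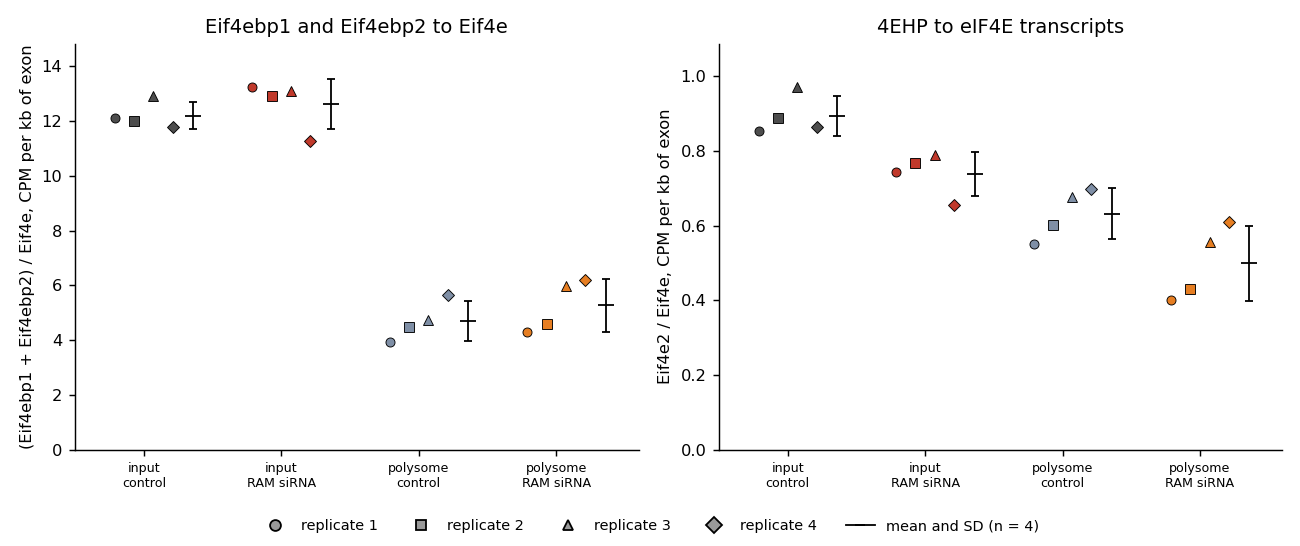
Ratio of summed Eif4ebp1 and Eif4ebp2 to Eif4e transcripts (left) and of Eif4e2 to Eif4e transcripts (right) in each library, both from CPM per kb of exon on linear axes from 0, with bars for the mean and SD (n = 4). The left ratio ranges from 11.3 to 13.2 in the input libraries and from 3.93 to 6.18 in the polysome libraries, and the right ratio is lower in all 4 RAM siRNA input libraries than in the control input libraries.

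The polysome libraries of replicates 1 and 2 stood apart from those of replicates 3 and 4, and the members moved with this split. For 6 of the 8 tested members both polysome libraries of 1 pair lay above both of the other pair, in the same direction with either siRNA, as for 45.5% of all genes tested. Eif4ebp1, Eif4e2 and Ncbp2 were higher in replicates 3 and 4, by 1.46-fold, 1.40-fold and 1.33-fold in control cells and by 1.82-fold, 1.87-fold and 1.69-fold in RAM siRNA cells. Ncbp1 was lower in replicates 3 and 4, at 0.662 of the level in replicates 1 and 2 for the control and 0.557 for RAM siRNA, and Eif4enif1 and Ncbp3 were lower by less. In input this held for 2 members, Eif4enif1 and Ncbp1, as for 11.3% of all genes. The labels name no batch, and the origin of the split was not tested.

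The genes whose log2 CPM followed that of a member most closely were named for the first member of each role, over the 16 libraries, which share fraction and replicate differences. For Eif4e they were Rpl8, Gtf2h3 and Ap2m1, with Pearson's r between 0.987 and 0.990. For Eif4ebp1 they were Eloc, Prelid1 and Dctpp1, with r between 0.990 and 0.994. For Ncbp1 they were Kpna3, Tax1bp1 and Sacm1l, with r between 0.982 and 0.988.

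Genes that work with these proteins were examined as 6 lists, 39 genes in all, of which Ramac is the target of the siRNA. Of the 38 others, 2 fell and 2 rose in input, against 5.94% and 6.95% of all genes, and with the replicate block 9 fell and 6 rose, against 19% and 20.3%. Summed over both directions, these shares are close to those of all genes. Their median log2 fold change was -0.02. Mknk2, 1 of the kinases that phosphorylate eIF4E, rose from 47.8 ± 1.75 to 61.5 ± 3.84 CPM (SD, n = 4; log2 fold change 0.36, SE 0.07, adjusted p = 0.0049). It was the only 1 of 10 genes for eIF4E kinases and mTORC1 that was called without the block. Mtor had a log2 fold change of -0.15 (adjusted p = 0.146) and was called lower with the block (adjusted p = 0.0107).

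In the list of 9 partners of 4EHP and 4E-T, Lsm14a, a processing body protein that binds 4E-T, fell by 0.25 on the log2 scale (SE 0.07, adjusted p = 0.0249). With the block, 3 of the 9 were called lower and 1 higher, against 19% and 20.3% of all genes. Those added were Ddx6 (-0.22, adjusted p = 0.0043) and Edc4 (-0.15, adjusted p = 0.0203), both lower, and Lsm14b, higher (0.32, adjusted p = 4.5e-05), and without the block their adjusted p were 0.168, 0.183 and 0.0940. Gigyf2, which works with 4EHP in repression, was at 71.7 ± 4.47 and 72.0 ± 3.89 CPM (SD, n = 4; log2 fold change 0.0025). None of the 8 genes for eIF4F and its helpers was called without the block, against 12.9% of all genes. An unadjusted p under 0.05 was found for 2 of them, against 3591 of the 12805 genes tested. The 2 were Eif4a2, the second eIF4A gene (0.21, adjusted p = 0.0789), and Eif4g2 (-0.20, adjusted p = 0.107). With the block, 4 of the 8 were called, against 39.3% of all genes. Eif4a2 (adjusted p = 8.4e-04) and Eif4a1 (0.17, adjusted p = 0.0032) were higher, and Eif4g2 (adjusted p = 0.0011) and Eif4g1 (-0.17, adjusted p = 0.0045) lower. Without it, Eif4a1 had an adjusted p of 0.319 and Eif4g1 of 0.289.

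Of the 4 genes for nuclear cap-binding complex partners, 0 were called in input without the block, against 12.9% of all genes. The same held for the 4 genes for other proteins that bind the cap or eIF4E. In both lists 0 genes had an unadjusted p under 0.05, against 3591 of all 12805 tested. The smallest p were those of Alyref (-0.11, adjusted p = 0.398), Srrt (0.12, adjusted p = 0.567), Cyfip1 (-0.14, adjusted p = 0.224) and Angel1 (0.09, adjusted p = 0.490). With the block, Alyref (adjusted p = 0.0360) and Cyfip1 (adjusted p = 0.0182) were called lower and Srrt higher (adjusted p = 0.0496). These are 2 of the 4 nuclear partners and 1 of the 4 others, against 39.3% of all genes. In cap formation, the genes for both cap 2′-O-methyltransferases were called, in opposite directions. They are 2 of the 3 genes of this list other than Ramac, against 12.9% of all genes. Cmtr2 fell from 17.1 ± 1.24 to 13.1 ± 0.249 CPM (-0.39, SE 0.09, adjusted p = 0.0117), and Cmtr1 rose from 4.52 ± 0.747 to 6.64 ± 1.22 CPM (0.55, SE 0.16, adjusted p = 0.0455). Cmtr1 had only 73 to 145 counts in each input library.

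In polysomes, 0 of the 38 were called without the block, against 0.0234% of all genes. An unadjusted p under 0.05 was found for 0 of the 38, against 1152 of the 12805 genes tested. With the block, Mknk2 was called higher (0.46, adjusted p = 0.0126) and Cmtr2 lower (-0.43, adjusted p = 0.0170), against 14.6% of all genes. Between polysomes and input in control cells, 16 of the 38 were lower in polysomes and 7 higher, against 34.3% and 33.1% of all genes, with a median of -0.24 beside -0.00080 for all genes. With the block 18 were lower and 8 higher, against 72.3% of all genes in either direction, the added genes being Eif4g3 (-0.54, adjusted p = 0.0284) and Rptor (-0.36, adjusted p = 0.0212), lower, and Lsm14a, higher (0.31, adjusted p = 0.0406). The 4EHP and 4E-T partners had 5 of 9 lower and 0 higher without the block, beside the same shares of all genes, led by Gigyf1 (-1.95, SE 0.18, adjusted p = 4.0e-06) and Gigyf2 (-1.74, SE 0.23, adjusted p = 4.7e-05). Both lay far below Eif4e2, whose own log2 ratio was 0.10. The genes for eIF4F and its helpers divided. Eif4a1 was higher in polysomes (0.93, SE 0.13, adjusted p = 7.7e-05), as Eif4e was, while Eif4a2, Pabpc1, Eif4g1 and Eif4b were lower, by between 0.64 and 1.33. Of these, Eif4g1 was nearest to the threshold (-0.75, SE 0.30, adjusted p = 0.0455). Its fractions overlapped, with 272 to 812 CPM in control polysomes and 706 to 817 CPM in control input. Of the 4 partners of the nuclear cap-binding complex, Alyref (0.96) and Ddx39b (0.57), which act in mRNA export, were higher in polysomes, while Srrt had a log2 ratio of -0.04 (adjusted p = 0.885) and Zc3h18 of 0.03 (adjusted p = 0.871).

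In this experiment the genes that fell in input more often held the 6 bases ACTATC in their 3′ UTR, a pattern already known from an earlier look at these data, so the members were searched for it on the transcript strand. The longest annotated 3′ UTR of each gene was used (GENCODE M21, GRCm38). ACTATC was held by 15.0% of the 12058 tested genes with a 3′ UTR, by 37.1% of the genes called lower in input and by 8.62% of those called higher. Among the members, Eif4e, Eif4e2, Eif4ebp1, Eif4enif1 and Ncbp1 held it. The sites of the member called lower and of the member called lower with the block are shown with 9 bases on each side, and the capitals mark ACTATC.
Eif4e2: ttgctgtgtACTATCcagatgcct
Eif4enif1: cataaagtaACTATCagttaggct
The first lies at chr1:87238147-87238170 and the second at chr11:3244473-3244496, both on the plus strand. Only the site of Eif4enif1 continues to ACTATCA, which 5.71% of all genes and 18.5% of the genes called lower held. Eif4e held ACTATC at 2 places and Eif4ebp1 and Ncbp1 at 1 each, and these genes had log2 fold changes of -0.07, -0.02 and -0.07 in input. TGCTCA was held by 37.5% of all genes, by 47.6% of the genes called higher and by 35.5% of those called lower. It was found in Eif4e, Eif4e2, Eif4ebp2 and Ncbp3. The length of the 3′ UTR was not taken into account for either pattern. A match of these letters is a description of the sequence, and its part in the changes was not tested.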

How the data were processed

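The authors mapped paired reads of strand-specific, ribosomal RNA-depleted libraries to GRCm38 (mm10) with STAR 2.5.1b and deposited raw htseq-count counts per Ensembl gene. The strand and overlap settings and the annotation release are not given in the sources used here. The table has 46983 genes and 0 columns of other samples, and 46488 genes matched a symbol. Groups follow the labels.

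The 12805 genes that reached 1 CPM in 10 or more of the 16 libraries were tested by quasi-likelihood in edgeR 4.0.16 (R 4.3.3) after TMM scaling, with Benjamini-Hochberg adjustment over all of them and a threshold of 0.05 (called). RAM siRNA was compared with control in each fraction, polysomes with input in control cells, each in 8 libraries, and polysome loading in all 16. Ratios are from CPM per kb of merged exon (GENCODE M21), and correlations across libraries are of log2 CPM with 0.5 added. The first fits have no replicate term, since the study's text names none. In input they called 761 genes lower and 890 higher. The fit with the replicate block called 2433 lower and 2595 higher, which is nearer to the numbers that the study reported. Same-numbered libraries deviated together (mean r 0.623 in input, lowest 0.400, and 0.840 in polysomes, lowest 0.625, over 9135 genes). They were taken to come from the same occasion, which the labels do not state. Fits with a replicate block are therefore given beside the members, lists and markers whose calls they change. Alternatives were DESeq2 1.42.0, limma-voom 3.58.1, other scalings and filters, pairs of replicates alone and each library left out. The steps were tested on simulated data with independent libraries and no replicate effect. That test therefore does not cover the replicate split seen in the polysome libraries.

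The members and lists were chosen with earlier results of these data known. Genes named are the members, Ramac, the markers, and for Eif4e, Eif4ebp1 and Ncbp1 the 3 genes with the highest r. In each list the genes called with RAM siRNA are named. Where none was called in input without the block, the 2 with the smallest p there are named too. Gigyf2 in input and Zc3h18 between fractions are named outside this rule. Between fractions only some of the genes called in each list are named.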

Additional observations from a re-analysis of the deposited data

Results flagged for a closer look

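In 4 of the 44 groups of 4 libraries examined, 1 library lay far from the other 3, its gap to the nearest taking most of the group's range, and chance gives this in about 1 group in 20. Eif4enif1 in control input was highest in replicate 3 at 46.4 CPM, a gap of 0.894 of the range, and without that library the change of Eif4enif1 with RAM siRNA in input was -0.13 on the log2 scale. Eif4ebp2 in RAM siRNA input was lowest in replicate 2 at 29.3 CPM (0.872 of the range). The ratio of summed Eif4ebp1 and Eif4ebp2 to Eif4e in RAM siRNA input was lowest in replicate 4 at 11.3 (0.833 of the range). Ramac in RAM siRNA input was lowest in replicate 2 at 2.66 CPM (0.887 of the range).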

How the results depend on the processing

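Of the members' log2 fold changes, 257 values under alternatives other than leaving out a library kept their direction and side of the threshold, 9 passed the threshold only there, 3 lost it and 35 changed sign, all 35 among values that were not called. Leaving out 1 library kept 264, brought 1 past the threshold, Ncbp2 between fractions in control cells, and reversed 55 that were not called. The members called in input numbered 3 with the replicate block, against 39.3% of all genes. They numbered 0 with all 16 libraries in 1 fit (186 of 12805 genes called) and 0 with replicates 3 and 4 alone (0 genes called). Whichever input library was left out, 1 was called. In polysomes 1 was called with the block, against 14.6% of all genes, and 0 whichever library was left out. Between fractions in control cells 5 were called with the block, Ncbp3 added, against 72.3% of all genes. Without a filter on low counts 7 were called there, Eif4e3 among them, against 11944 of 29364 genes. Leaving out a library gave 4 to 5 between fractions. The fit without a filter also moved the median of all genes to -0.18. Ramac in polysomes passed the threshold with the block (-2.59), DESeq2 (-2.55) and no filter (-2.58), and was between -2.90 and -2.17 with 1 library left out. It was not tested under the filter of 5 CPM. The ratio of summed Eif4ebp1 and Eif4ebp2 to Eif4e from raw counts was 4.67, 4.83, 1.75 and 1.97 in control input, RAM siRNA input, control polysomes and RAM siRNA polysomes. The replicate block changed no call of a member other than these.

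With RAM siRNA in input, Ncbp3 was at -0.0018 with RLE scaling, -0.023 with library-size scaling, -0.0019 with DESeq2, -0.026 without a filter, -0.059 in replicates 1 and 2 and -0.041 to 0.027 with 1 library left out. Eif4ebp2 was at 0.0021 with the replicate block, 0.024 with limma-voom, 0.19 in replicates 1 and 2 and -0.13 to 0.21 with 1 library left out, Eif4ebp1 at -0.063 to 0.0082 with 1 library left out, and Eif4e at 0.020 in replicates 3 and 4. In polysomes, replicates 1 and 2 alone gave -0.067 for Eif4ebp1, 0.031 for Ncbp1 and -0.0041 for Ncbp2, replicates 3 and 4 alone 0.054 for Eif4e and -0.042 for Ncbp3, and library-size scaling -0.0089 for Ncbp3. With 1 library left out Eif4e was between -0.19 and 0.12, Eif4ebp1 between -0.12 and 0.39, Eif4ebp2 between 0.022 and 0.47, Ncbp1 between -0.26 and 0.068 and Ncbp3 between -0.051 and 0.12. Between fractions in control cells, Eif4e2 was at -0.18 in replicates 1 and 2 and between -0.086 and 0.21 with 1 library left out.

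For the change in polysome loading, RLE scaling and DESeq2 both gave 0.027 for Eif4e and 0.020 for Ncbp1, library-size scaling 0.015 for Eif4e, no filter 0.063 for Eif4e, 0.031 for Eif4e2 and 0.048 for Ncbp1, and the filter of 5 CPM 0.049, 0.019 and 0.030 for the same genes. The replicate block, the block within each fraction, the block by culture and limma-voom gave -0.014, -0.035, -0.037 and -0.042 for Ncbp2 and -0.0047, -0.0055, -0.0066 and -0.0058 for Ncbp3. With 1 library left out the change was -0.16 to 0.15 for Eif4e, -0.33 to 0.14 for Eif4e2, -0.14 to 0.36 for Eif4ebp1, -0.074 to 0.44 for Eif4ebp2, -0.034 to 0.12 for Eif4enif1, -0.25 to 0.11 for Ncbp1, -0.15 to 0.19 for Ncbp2 and -0.11 to 0.10 for Ncbp3. The cause of these differences was not tested.

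Depth limits the values of Eif4e3 and of Ramac and Eif4ebp2 in polysomes, and the spread between polysome libraries limits the comparisons in that fraction.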
